A study of Rattus norvegicus with 6 samples.

Results

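The genes described here are 36 rat genes of protein folding stress: chaperones of the endoplasmic reticulum (ER), the cytosol and the mitochondria, the machinery that degrades misfolded ER proteins, the sensors and transcription factors of the unfolded protein response, and targets of the transcription factor ATF4. They were chosen by name from these pathways, by a rule that used no measured value although earlier results of these data were known. Of the 36, 32 matched a probe on the array through its transcript accession, among 12118 genes that could be tested. For Manf, Edem1, Hspa1b and Dnajb1 no probe accession matched the gene table used, which does not show that the array lacks probes for them, and they were not analysed here. The animals were 6 male Sprague-Dawley rats (Crl:CD(SD)), 5 weeks old when bought and kept on a basal diet. Of these, 3 received corn oil, the vehicle, for 4 weeks, and the other 3 received sulfone bis(p-chlorophenyl) for 4 weeks at 250 mg per kg per day. This compound is a diaryl sulfone with a chlorine on each ring. Total RNA of the renal cortex was labelled with Cy3 and each animal was hybridised alone to a 1-colour Agilent array. The 3 animals of a group are stated to be biological replicates, and there was 1 dose and 1 duration.

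Secreted and membrane proteins fold in the ER with the help of chaperones such as Hspa5 (BiP) and Hsp90b1 (GRP94). When unfolded proteins accumulate there, the sensors IRE1 (encoded by Ern1), ATF6 and PERK (encoded by Eif2ak3) raise the transcription of ER chaperones and of the degradation machinery, and PERK also increases translation of ATF4. Misfolding in the cytosol is answered separately by the heat shock factor HSF1, which drives the heat shock proteins. Renal tubule cells make large amounts of membrane transporters and pass them through the ER, and both responses are commonly used to read proteotoxic injury in kidney.

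The promoter sequences of 29 of the 36 genes were available from RefSeq on the build GRCr8. Windows are shown for some of the genes that carry a known element of these regulators, so that their values can be read beside it. Each window is 30 bases upstream of the start that RefSeq gives, and for Herpud1 and Hspd1 that start is not the outer edge of the annotated gene. The capitals mark 1 element per window and the letters run 5′ to 3′ on the strand of the gene. In Hspe1 and Hspd1 another heat shock element overlaps the capitals and is not marked.
Hspa5, ER stress element: gttcaCCAATCGGAGGCCTCCACGacgggg
Hsp90b1, ER stress element, distal: caaacCCAATCGAAAGGAGCCACGcttcgg
Hsp90b1, ER stress element, proximal: gagtgCGTGGTGAGGCACGATTGGtgggtt
Xbp1, ER stress element: acaggCCAATCGCAGACGGCCACGacccta
Herpud1, ER stress element II: cgggcgctgATTGGGCCACGttgggcactg
Herpud1, ATF4 composite element: accacggcgggTTGCATCAgcccgcaccct
Chac1, ATF4 composite element: cttctccgccgTTGCATCActcctgctagg
Hsph1, heat shock element: gccgcagaTTCTGGAAAGTTCtcctcagta
Hspe1, heat shock element: gcgctcggTTCTAGAACCTTCcggaaggcc
Hspd1, heat shock element: gccttccgGAAGGTTCTAGAAccgagcgcg

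These windows lie at chr3:38452968-38452997 (plus strand) for Hspa5, at chr7:23012445-23012474 and chr7:23012341-23012370 (minus strand) for Hsp90b1 and at chr14:84604553-84604582 (plus strand) for Xbp1. Those of Herpud1 are chr19:10614811-10614840 and chr19:10614873-10614902 (minus strand), and that of Chac1 is chr3:126795953-126795982 (plus strand). The Hsph1 window is chr12:10427324-10427353 (plus strand). Hspe1 (chr9:64084254-64084283, plus strand) and Hspd1 (chr9:64084253-64084282, minus strand) face away from each other, and the windows cover nearly the same bases read from opposite strands. The ER stress element, CCAAT and CCACG with 9 bases between them, was searched on both strands in the 250 bases before each gene start. It was found in 7 of the 29 promoters (Hspa5, Hsp90b1, Calr, Canx, Dnajc3, Creld2 and Xbp1) and in 0.0657% of all 33469 promoters of that length. ER stress element II, ATTGG and CCACG with 1 base between them, was in Herpud1 and Hyou1 and in 0.0418% of all promoters. The ATF4 composite element was searched as TTGCATCA and was in Herpud1 and Chac1 (0.693% of all promoters). The heat shock element, GAA, TTC and GAA with 2 bases between neighbours, was in Hspa8, Hsph1, Hspd1 and Hspe1 (0.663% of all promoters). The unfolded protein response element TGACGTGG was in Hyou1, where it overlaps an ER stress element II, and in Bag3 (0.52% of all promoters). A match of letters is a description of the window and does not show that a factor binds there.

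Transcript levels of these stress genes differed little between treated and vehicle cortex. Intervals excluded 0 for Herpud1 (1.60-fold), Dnajb9 and Hsp90ab1 on the higher side and for Chac1 on the lower side. With slide as a block, the differences of these 4 genes were 0.48, 0.19, 0.31 and -0.05, in that order. Those values rest on treated 1 alone against the 3 vehicle arrays. With slide as a random block, 2 of the 32 were higher and 0 lower at an unadjusted limma p under 0.05. In that fit 2633 of all 40643 tested probes were higher and 3355 lower. Without slide in the fit, none of the 32 passed adjustment over all 40643 tested probes. Of these probes, 1 (0.00246%) was called higher and 2 (0.00492%) were called lower at a limma adjusted p under 0.05. At an unadjusted limma p under 0.05, 3 of the 32 genes were higher and 1 was lower. The background over all 12118 genes was 10.1% higher and 11.3% lower. Without treated 1 the counts were 5 and 2, while those over all 40643 probes rose from 3400 and 4977 to 5550 and 7435. Without vehicle 1, vehicle 2, treated 2 or treated 3, 0 of the 32 were lower, while the lower probes fell to between 2763 and 3368. Of the 32, 6 had every treated array above every vehicle array (background 13.9%) and 2 had every treated array below (background 16.8%). The median difference over the 32 genes was 0.03, against -0.01 over all genes tested. All levels are log2 signals relative to the array's 75th percentile, and all differences are treated minus vehicle on the log2 scale.

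The intervals of the fit without slide bounded most of the differences, as they did for most genes tested. They do not cover a difference between the slides. For 23 of the 32 genes the 95% interval of the difference lay within 1.5-fold either way, which was true of 65.0% of all genes tested. For 31 of the 32 it lay within 2-fold either way (86.5% of all genes), and the exception was Herpud1. For 23 of the 32 the difference between groups was smaller than the range among the 3 vehicle arrays, which held for 56.7% of all genes tested. All 32 genes were well above background on all 6 arrays, so the filter on dim probes removed none of them.

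**Figure D1:**
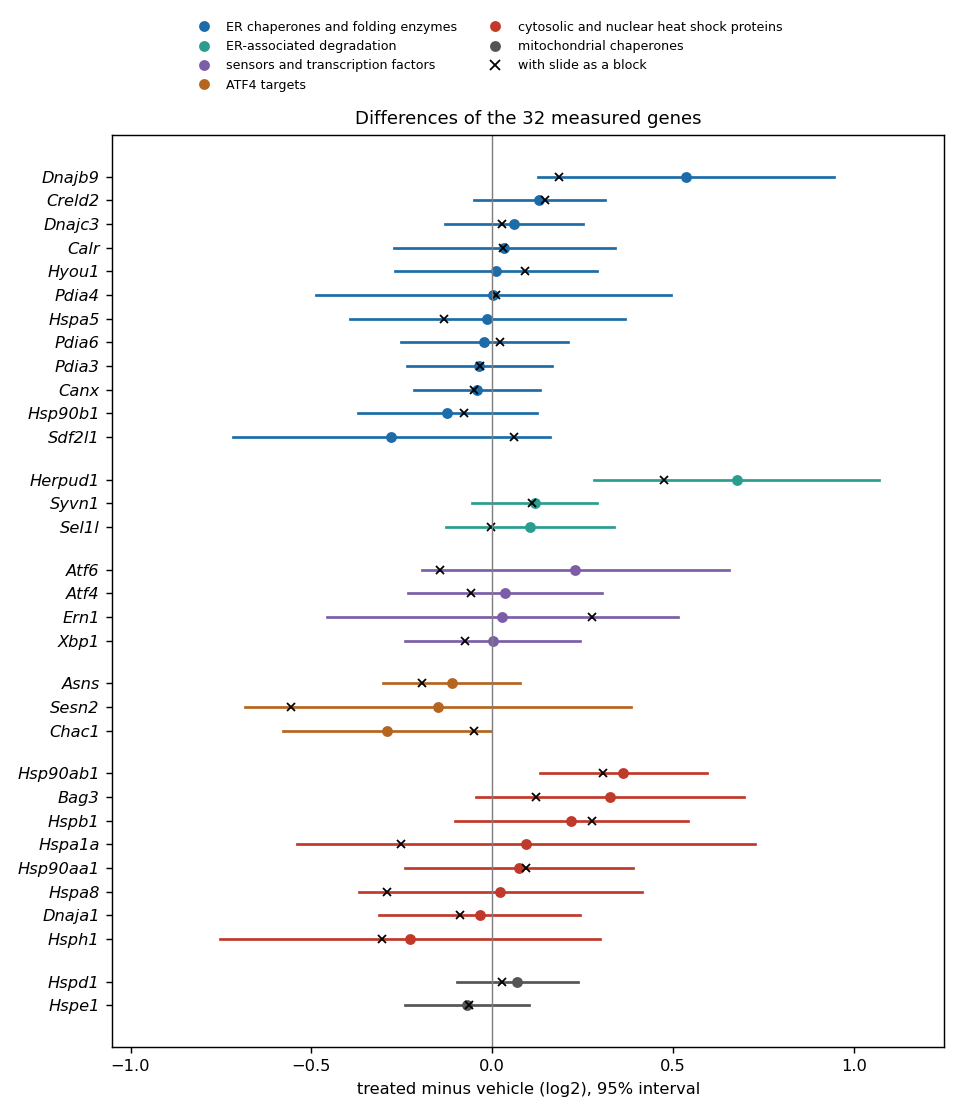
Treated minus vehicle difference (log2, horizontal axis) of the 32 measured genes, grouped and coloured by role, with points for the estimate, lines for the 95% interval and crosses for the estimate with slide as a block. The intervals of Herpud1, Dnajb9 and Hsp90ab1 lie above 0, that of Chac1 just below 0, and the other 28 include 0.

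The arrays lay on 2 slides. Slide 1 held the 3 vehicle arrays and treated 1, and slide 2 held treated 2 and treated 3. A value given here with slide as a block is therefore the difference of treated 1 from the 3 vehicle arrays on the same slide. Leaving out treated 1, so that the treated group lay on slide 2 alone, gave 4307 called probes in place of 3, and 4.18% of genes were then called higher and 5.42% lower. Dnajb9 and Chac1 were called only without that array. Without vehicle 2 or treated 2, 0 probes were called.

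ER chaperones and folding enzymes had differences centred near 0. Of 12 measured genes, 1 had an unadjusted limma p under 0.05 on the higher side and 0 on the lower (background 10.1% and 11.3%). None passed adjustment, and the group median was -0.005 (within slide 1 it was 0.02). Hspa5, the main Hsp70 chaperone of the ER and its usual stress reporter, gave log2 signals of 5.14, 5.20 and 4.71 for the vehicle animals in order of replicate number, against 4.88, 5.15 and 4.97 for the treated animals. The groups overlapped fully, and vehicle 3 was the lowest array. The difference was -0.01 (SE 0.16, 95% interval -0.39 to 0.37, limma adjusted p = 0.968). Hsp90b1, the Hsp90 of the ER, had 3.33, 3.61 and 3.38 in the vehicle arrays and 3.36, 3.35 and 3.24 in the treated arrays. Its difference was -0.12 (SE 0.10, 95% interval -0.37 to 0.12), with the highest value in vehicle 2.

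The lectin chaperones Calr and Canx, which hold newly made glycoproteins, had differences of 0.03 (SE 0.12) and -0.04 (SE 0.07). The disulfide isomerases Pdia3, Pdia4 and Pdia6 lay between -0.04 and 0.003. Dnajc3, a co-chaperone of Hspa5 that also restrains PERK, had 0.06, and Hyou1, an ER chaperone that exchanges nucleotide on Hspa5, had 0.01. Creld2, an ER stress-inducible folding factor, had 0.13 (SE 0.07), and its groups did not overlap although the interval of -0.05 to 0.31 included 0. Sdf2l1, part of an Hspa5 chaperone complex, had a difference of -0.28 (SE 0.18), with 1.89 in treated 1 above all vehicle arrays and 1.57 and 1.19 in treated 2 and 3 below them. With slide as a block its value was 0.06.

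Dnajb9 (ERdj4), an Hsp40 co-chaperone of the ER that targets misfolded proteins for degradation and restrains IRE1, had the largest difference of the ER chaperones. Its log2 signals were 0.84, 0.90 and 0.68 in the vehicle arrays and 0.99, 1.46 and 1.57 in the treated arrays. The groups did not overlap, but treated 1 lay close to vehicle 2 and well below the other treated arrays. The difference was 0.54 (SE 0.17, 95% interval 0.13 to 0.94, limma adjusted p = 0.178). It was 0.19 with slide as a block and 0.71 without treated 1 (limma adjusted p = 0.0226). Over all alternatives its adjusted p ranged from 0.0226 to 0.549.

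Of the machinery for degradation of misfolded ER proteins, Herpud1 stood apart from Sel1l and Syvn1. Herpud1 encodes a membrane protein that assembles the degradation complex around the ubiquitin ligase Syvn1 (HRD1), for which Sel1l is the adaptor. Herpud1 had log2 signals of 3.95, 3.64 and 3.44 in the vehicle arrays and of 4.15, 4.48 and 4.42 in the treated arrays. Every treated array was above every vehicle array, and the gap between treated 1 and vehicle 1 was the narrowest. The means were 3.68 ± 0.26 (SD, n = 3) and 4.35 ± 0.18 (SD, n = 3), a 1.60-fold difference (log2 0.68, SE 0.16, 95% interval 0.28 to 1.07, limma adjusted p = 0.133). With slide as a block the difference was 0.48. Across the alternatives it ranged from 0.48 to 0.82 and its limma adjusted p from 0.0524 to 0.401, so that it passed adjustment in 0 of 17.

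Syvn1 had 2.65, 2.73 and 2.66 in the vehicle arrays and 2.79, 2.85 and 2.75 in the treated arrays. Its groups did not overlap by a small margin, and the difference was 0.12 (SE 0.07, limma adjusted p = 0.381). Sel1l had a difference of 0.10 (SE 0.10) with overlapping groups, and -0.004 with slide as a block. Herpud1, Syvn1 and Sel1l together had a median difference of 0.12, and of 0.11 within slide 1.

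**Figure D2:**
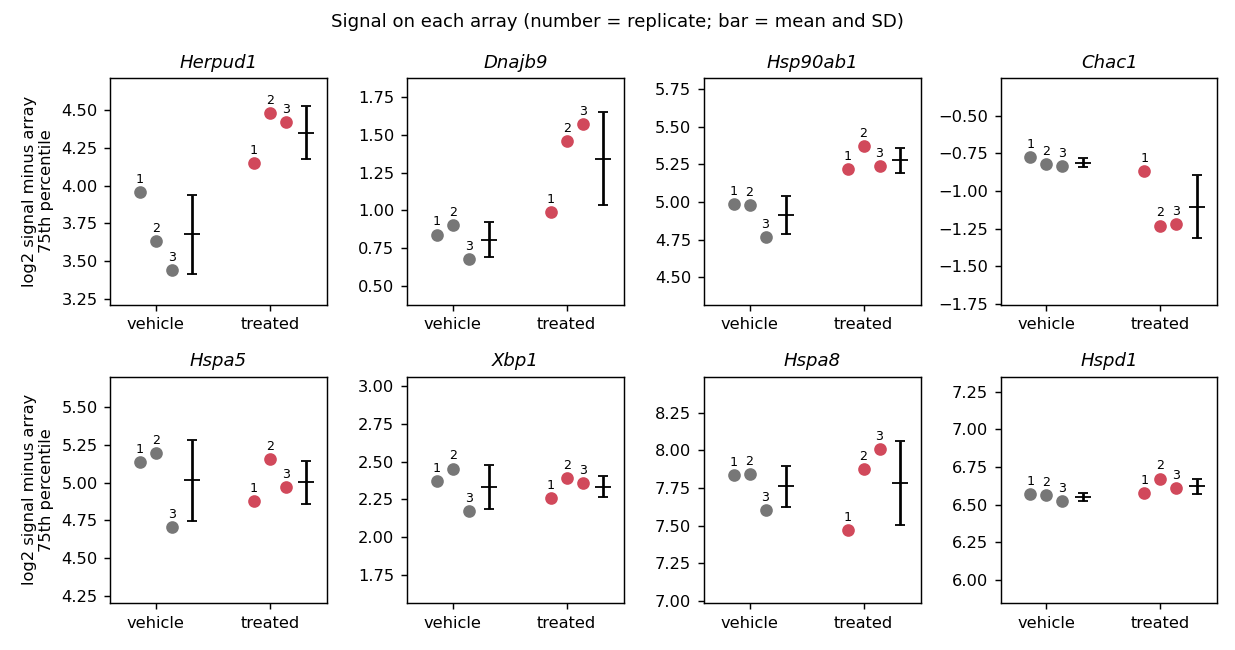
Log2 signal minus the array's 75th percentile (vertical axis, the same span in every panel) for 8 genes on each vehicle and treated array, numbered by replicate, with a bar for the group mean and SD. Herpud1, Dnajb9 and Hsp90ab1 have every treated point above every vehicle point and Chac1 every treated point below, whereas Hspa5, Xbp1 and Hspa8 overlap between groups.

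The sensors and transcription factors of the response had intervals that all included 0. Xbp1, whose mRNA is spliced by IRE1 and which encodes the activator of degradation genes, had 2.37, 2.46 and 2.17 in the vehicle arrays and 2.26, 2.39 and 2.36 in the treated arrays. The treated values lay inside the vehicle range, and the difference was 0.002 (SE 0.10, 95% interval -0.24 to 0.24). The probe does not tell spliced from unspliced Xbp1 mRNA here, since no source used names the part it binds. Atf4, which is controlled mainly at translation, had 4.70, 4.58 and 4.37 with vehicle alone against 4.49, 4.67 and 4.60 with treatment, a difference of 0.04 (SE 0.11, 95% interval -0.23 to 0.30).

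Atf6 had 1.51, 1.40 and 1.39 in the vehicle arrays and 1.29, 1.76 and 1.94 in the treated arrays. Treated 1 was the lowest of all arrays and treated 2 and 3 were the highest, and the difference was 0.23 (SE 0.17) overall but -0.15 with slide as a block. The other Atf6 probes had differences of -0.13 and -0.03. Ern1, close to background, had -4.46, -4.69 and -4.95 in the vehicle arrays and -4.43, -5.03 and -4.56 in the treated arrays, a difference of 0.03 (SE 0.20). The median of these 4 genes was 0.03, and -0.07 with slide as a block.

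The 3 targets of ATF4 had a median difference of -0.15 (-0.19 with slide as a block), and none passed adjustment. The intervals of Asns and Sesn2 included 0. Asns, asparagine synthetase, had -0.86, -0.79 and -0.74 in the vehicle arrays and -0.99, -0.86 and -0.87 in the treated arrays. The groups touched without overlapping, and the difference was -0.11 (SE 0.08, 95% interval -0.30 to 0.08, limma adjusted p = 0.437). Chac1, which degrades glutathione and is a usual marker of ATF4 activity, had -0.78, -0.82 and -0.84 in the vehicle arrays and -0.86, -1.23 and -1.22 in the treated arrays. Treated 1 lay just below the vehicle arrays, and treated 2 and 3 were lower. The difference was -0.29 (SE 0.12, limma adjusted p = 0.238), or -0.05 with slide as a block and -0.41 without treated 1 (limma adjusted p = 0.0274), and the adjusted p ranged from 0.0274 to 0.799 over the alternatives. A dimmer Chac1 probe had a difference of -0.06.

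Sesn2, a stress-inducible regulator of mTORC1, had 0.39, 0.06 and -0.12 in the vehicle arrays and -0.45, 0.09 and 0.23 in the treated arrays. Treated 1 was the lowest array, treated 2 and 3 lay inside the vehicle range, and the difference was -0.15 (SE 0.22, 95% interval -0.68 to 0.38), or 0.05 without treated 1. Herpud1 and Chac1 both carry the ATF4 composite element printed above, and their differences had opposite signs. Among the 7 genes with the ER stress element the differences ran from -0.12 (Hsp90b1) to 0.13 (Creld2). Of the genes with ER stress element II, Hyou1 had 0.01 and Herpud1 0.68.

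Among the cytosolic heat shock proteins, the constitutive Hsp90 gene Hsp90ab1 was the only gene of the 8 measured whose interval excluded 0. The group had a median of 0.08, or 0.002 with slide as a block, and 0 of the 8 passed adjustment. Hspa1a, the stress-inducible Hsp70 that rises most after heat shock, had -1.83, -2.14 and -2.66 in the vehicle arrays and -2.46, -2.08 and -1.80 in the treated arrays. The groups overlapped almost completely, and the difference was 0.09 (SE 0.26, 95% interval -0.54 to 0.73). Hspa1a and Hspa1b are near-identical copies, so this probe may bind both transcripts. Hspa8, the constitutive Hsp70, had 7.84, 7.84 and 7.60 in the vehicle arrays and 7.47, 7.88 and 8.01 in the treated arrays. Treated 1 was the lowest and treated 3 the highest array, and the difference was 0.02 (SE 0.16).

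Hsp90ab1 had 4.99, 4.98 and 4.77 in the vehicle arrays and 5.22, 5.37 and 5.24 in the treated arrays by its brightest probe. All treated arrays were above all vehicle arrays, and the difference was 0.36 (SE 0.09, 95% interval 0.13 to 0.59, limma adjusted p = 0.144), or 0.31 with slide as a block. The other 4 probes of the gene had 0.12, 0.07, 0.19 and -0.15, in each case with overlapping groups, and the mean over its probes had a difference of 0.12 (limma adjusted p = 0.497). The groups were thus separated by 1 of its 5 probes. Its stress-inducible partner Hsp90aa1 had 5.61, 5.62 and 5.23 with vehicle alone against 5.58, 5.64 and 5.46 with treatment, a difference of 0.07 (SE 0.13).

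Bag3, which links Hsp70 to selective autophagy and is induced by HSF1, had a difference of 0.33 (SE 0.15, limma adjusted p = 0.281), with the highest value in treated 3 (4.68) and 4.22 in vehicle 1 above 4.20 in treated 1. Hspb1, a small heat shock protein, had 0.22 (SE 0.13), Dnaja1, an Hsp40 co-chaperone, -0.03 (SE 0.11), and Hsph1, the nucleotide exchange factor of Hsp70, -0.23 (SE 0.21). The 4 genes with the heat shock element ran from -0.23 (Hsph1) to 0.07 (Hspd1).

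The mitochondrial chaperonin pair was the most even of the groups across arrays. Hspd1 (Hsp60) had 6.57, 6.56 and 6.52 in the vehicle arrays and 6.58, 6.67 and 6.61 in the treated arrays. Its groups were separated by a very small margin, and the difference was 0.07 (SE 0.07, 95% interval -0.10 to 0.24). Hspe1 (Hsp10), its co-chaperonin, had 7.08, 7.16 and 7.06 in the vehicle arrays and 7.04, 7.06 and 6.99 in the treated arrays, a difference of -0.07 (SE 0.07, 95% interval -0.24 to 0.10). The pair shares the promoter region printed above and the differences had opposite signs, with both intervals including 0.

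**Figure D3:**
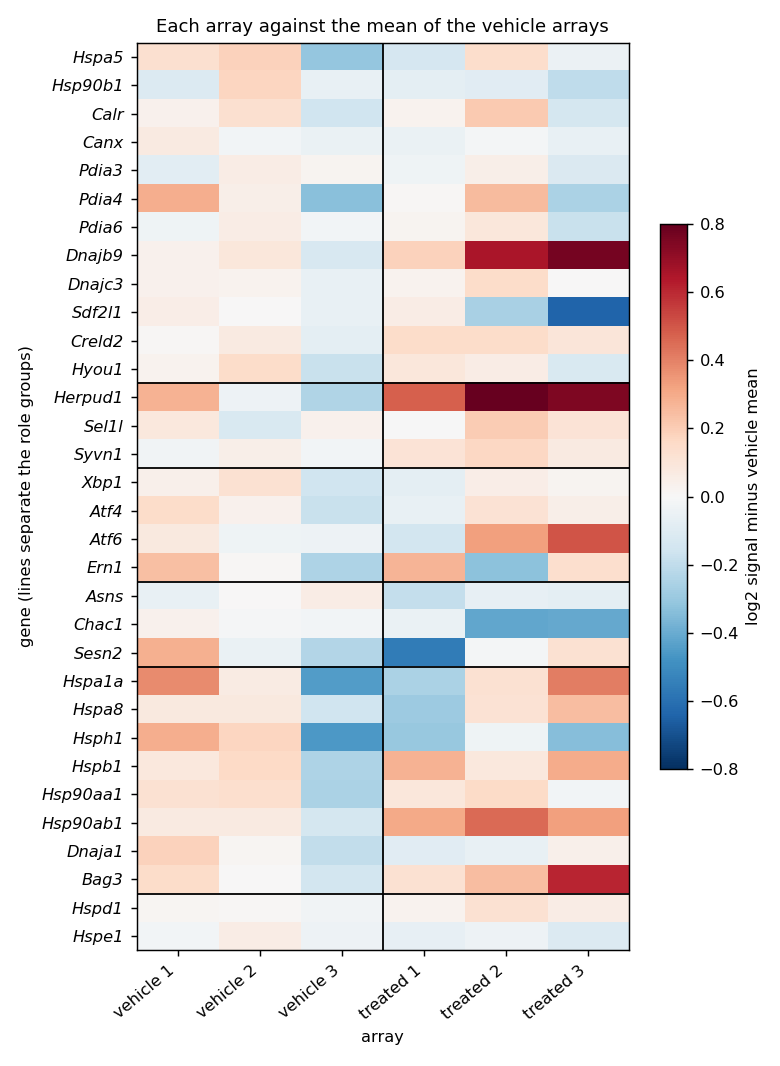
Log2 signal of each of the 32 genes on each array minus the mean of the 3 vehicle arrays (red above, blue below), in role groups separated by lines. Vehicle 3 is blue for most ER and cytosolic chaperones, and the strongest red cells are Herpud1 and Dnajb9 in treated 2 and 3.

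Much of the spread in chaperone signal lay between animals of a group. Vehicle 3 was the lowest of the 6 arrays for 18 of the 32 genes, where it was the lowest for 11.9% of all genes tested. This was so for 7 of 12 ER chaperones and 7 of 8 cytosolic heat shock proteins. The cytosolic group median, set against the vehicle mean of each gene, was 0.13, 0.07 and -0.22 for the vehicle animals in order, and 0.002, 0.12 and 0.27 for the treated animals. The ER chaperone group had 0.03, 0.07 and -0.07 in the vehicle arrays and 0.02, 0.12 and -0.12 in the treated arrays. Treated 3 was thus the highest array for the cytosolic group and the lowest for the ER group.

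A list of 6 liver transcripts (Alb, Ttr, Apoa1, Serpina1, Fgb and Hpx) also varied between these arrays, and all 6 were lowest in vehicle 3. The log2 of their summed linear signals was 4.55, 3.51 and 1.22 for the vehicle animals in order, and 2.47, 3.32 and 5.15 for the treated animals. Hspa1a was likewise highest in treated 3, next in vehicle 1 and lowest in vehicle 3, whereas the ER chaperone group median was lowest in treated 3 (-0.12). The part of the liver transcripts in the chaperone values was not tested. None of the liver list had an unadjusted limma p under 0.05 between groups, and the treated range of 2.47 to 5.15 overlapped the vehicle range of 1.22 to 4.55.

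**Figure D4:**
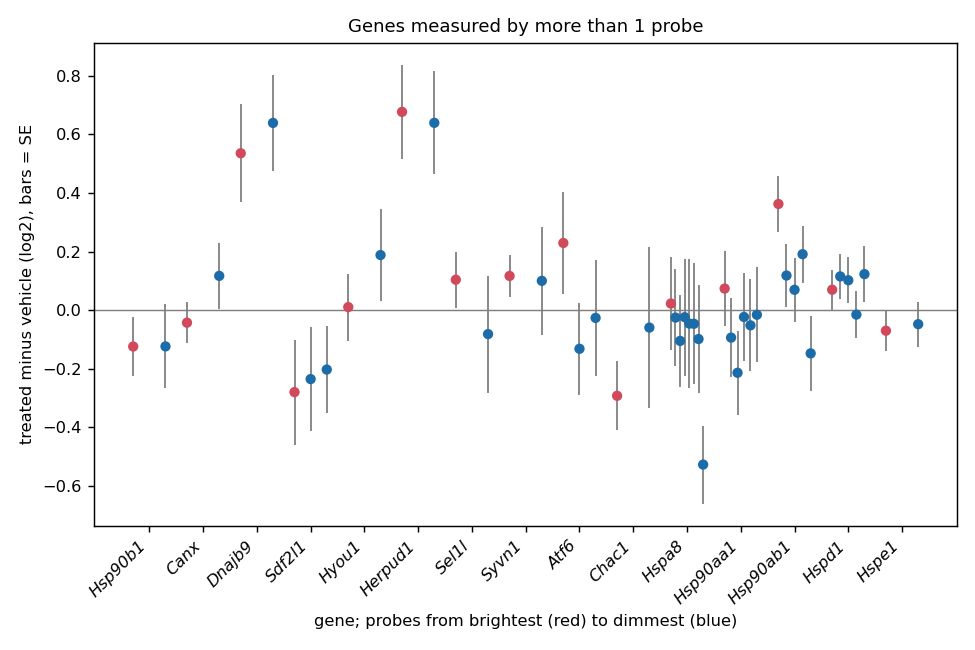
Treated minus vehicle difference (log2, with SE bars) for each tested probe of the genes with more than 1, from the brightest probe (red) to the dimmest (blue). Both probes of Herpud1 and both of Dnajb9 lie between 0.54 and 0.68, whereas the 5 probes of Hsp90ab1 spread from -0.15 to 0.36 and 1 Hspa8 probe lies at -0.53.

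The separate probes of a gene were compared as a check on identity. The second Herpud1 probe had a difference of 0.64 (SE 0.18) beside 0.68, and the second Dnajb9 probe had 0.64 (SE 0.16) beside 0.54, with groups that did not overlap in either. The 3 Sdf2l1 probes had -0.28, -0.23 and -0.20. Of 8 Hspa8 probes, 7 lay between -0.10 and 0.02, and the dimmest had -0.53 (SE 0.13, limma adjusted p = 0.141) with every treated array below every vehicle array. Probes of 1 gene share their arrays and RNA and are not independent replicates.

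Other genes of the same pathways were examined from lists of 178 genes, of which 160 were measured. At an unadjusted limma p under 0.05, 14 were higher (background 10.1%) and 12 lower (background 11.3%), and 0 passed adjustment. Without treated 1 24 were higher, where 5550 of all 40643 tested probes were higher against 3400 with every array. Without vehicle 1, vehicle 2, treated 2 or treated 3 between 3 and 7 were lower, where 2763 to 3368 probes were lower against 4977. The median over the 160 was 0.01.

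Among 17 other sensors and regulators, Nupr1, a stress-inducible chromatin protein, had -0.25, -0.02 and 0.40 in the vehicle arrays and 1.22, 0.72 and 1.36 in the treated arrays. All treated arrays were above all vehicle arrays, with a difference of 1.06 (SE 0.23, limma adjusted p = 0.123), and within slide 1 of 1.18. Ppp1r15a (GADD34), which reverses the PERK arm by dephosphorylating eIF2α, had 0.36, 0.52 and 0.52 in the vehicle arrays and 0.87, 1.22 and 1.37 in the treated arrays. The groups did not overlap, and the difference was 0.69 (SE 0.14, limma adjusted p = 0.115), or 0.40 with slide as a block and 0.83 without treated 1 (limma adjusted p = 0.0162, range over the alternatives 0.0162 to 0.335). Creb3l3 had 0.31 (SE 0.08) and Eif2ak2, the kinase PKR, -0.24 (SE 0.08). Among other markers of the PERK arm, Trib3 had a difference of 0.45 (SE 0.20, limma adjusted p = 0.265), with every treated array above every vehicle array. Its signals were low, from -4.71 in vehicle 3 to -3.76 in treated 1. Groups overlapped for Ddit3 (CHOP) at -0.10 (SE 0.15), Atf3 at -0.33 (SE 0.24) and Eif2ak3 itself at 0.11 (SE 0.09).

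Among 24 other ATF4 targets, 2 were higher and 3 lower at an unadjusted limma p under 0.05 (background 10.1% and 11.3%). Psph, the last enzyme of serine synthesis, had the largest difference, -0.99 (SE 0.16, limma adjusted p = 0.0912), with 2.86, 2.92 and 2.77 in the vehicle arrays and 2.08, 1.98 and 1.52 in the treated arrays. Every treated array was lower than every vehicle array, and the difference was -0.77 with slide as a block. Aars1, alanyl-tRNA synthetase, had -0.36 (SE 0.11) and Psat1 had -0.25 (SE 0.09). Cth, which makes cysteine from cystathionine, had 0.81 (SE 0.14), and Cebpb, a transcription factor, had 0.89 (SE 0.25). The list's median difference was -0.08, and its genes lay on both sides of 0.

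Of 27 other ER folding enzymes, 3 were higher and 1 lower at an unadjusted limma p under 0.05 (background 10.1% and 11.3%). The lower gene was Uggt1, at -0.48 (SE 0.17), with overlapping groups and low signals. The prolyl isomerases Fkbp14 and Fkbp7 had 0.69 (SE 0.12, limma adjusted p = 0.0957) and 0.44 (SE 0.11), and Txndc12, a thioredoxin-like ER protein, had 0.25 (SE 0.09). Of 21 other degradation genes, Nploc4, a cofactor of the extraction ATPase VCP, was the only one higher at that threshold, at 0.34 (SE 0.08). At the same threshold 0 were lower. Of 19 genes of ER translocation, 4 were lower (background 11.3%) and 1 higher (background 10.1%) at that threshold. Sec61g, a subunit of the translocation channel, had -0.26 (SE 0.08), Ssr1 -0.20 (SE 0.08) and Ssr2 -0.18 (SE 0.07). The signal peptidase subunit Spcs2 had -0.20 (SE 0.07) and Sec63 had 0.23 (SE 0.08).

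Of 30 other cytosolic chaperones and co-chaperones, 3 were higher and 3 lower at an unadjusted limma p under 0.05 (background 10.1% and 11.3%). Cryab, the small heat shock protein αB-crystallin, had 3.26, 3.49 and 4.20 in the vehicle arrays and 6.42, 4.22 and 4.80 in the treated arrays. Treated 1 was far above the rest, and treated 2 barely exceeded vehicle 3. The difference was 1.49 (SE 0.59, limma adjusted p = 0.232), or 2.77 with slide as a block and 0.86 without treated 1. Bag2, a co-chaperone of Hsp70, had 0.59 (SE 0.12), the small heat shock protein Hspb6 0.46 (SE 0.09) and Dnajb5 -0.41 (SE 0.10). Hspa4l and Hspa12a were the other lower genes, at -0.24 (SE 0.08) and -0.21 (SE 0.08). Hsf1, the heat shock regulator, had 0.01 (SE 0.09). None of the 8 subunits of the cytosolic chaperonin TRiC had an unadjusted limma p under 0.05, and the largest absolute differences were 0.12 (Cct7) and 0.08 (Cct2). Of 14 other mitochondrial chaperones and proteases, Clpx, the ATPase of a matrix protease, had 0.34 (SE 0.09), and Hspa9, the mitochondrial Hsp70, had -0.03 (SE 0.12). Without treated 1, 8 of the 160 genes were called, where the background in that comparison was 4.18% higher and 5.42% lower. Among them were Ppp1r15a, Fkbp14, Nploc4, Psph, Cth, Bag2 and Hspb6 at a limma adjusted p from 0.0162 to 0.044.

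**Figure D5:**
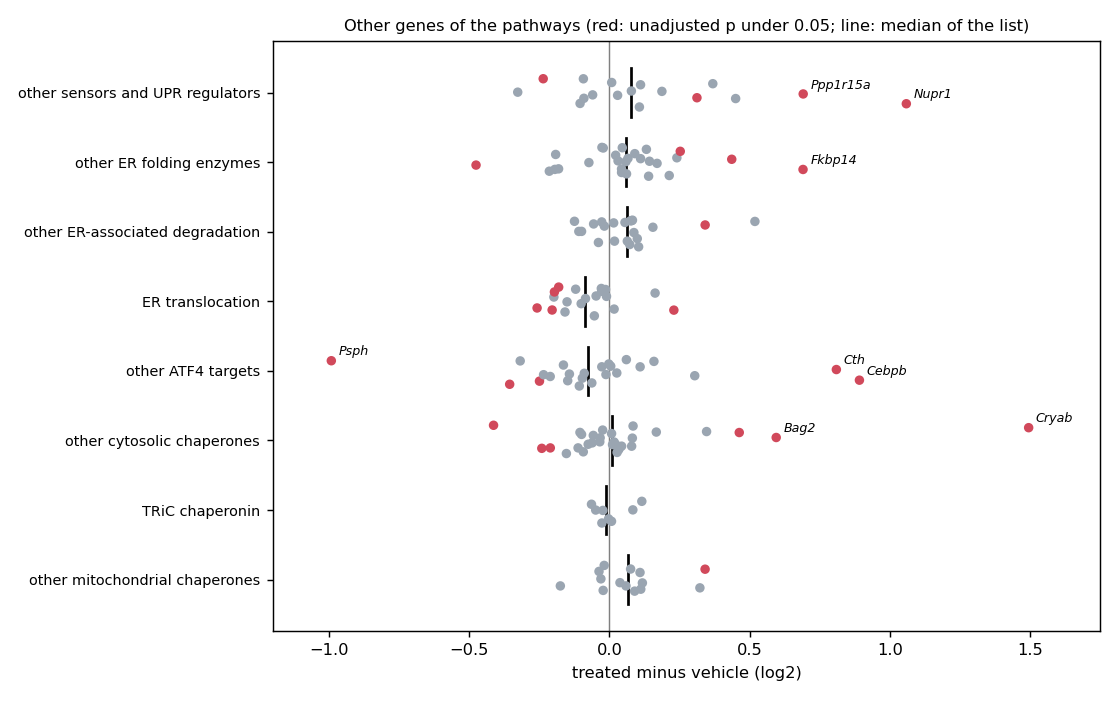
Treated minus vehicle difference (log2, horizontal axis) of 160 other genes in 8 lists, with a point per gene, red where the unadjusted limma p is under 0.05, and a line at the median of each list. The list medians lie between -0.09 and 0.08, while Cryab, Nupr1, Cebpb, Cth, Psph, Ppp1r15a, Fkbp14 and Bag2 carry their names as the genes farthest from 0.

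Well above background were 66.1% to 68.2% of the 61537 non-control probes, and array pairs correlated at 0.982 to 0.994 across tested probes, which are not independent. The tissue label was checked against markers of the renal cortex. All 6 proximal tubule markers and all 3 podocyte markers were well above background on every array. So were the 3 thick limb and distal tubule markers and the 3 collecting duct markers. The check therefore does not tell cortex from other kidney tissue. The log2 of the summed proximal tubule signals ranged from 9.93 to 10.01 in the vehicle arrays and from 9.69 to 10.10 in the treated arrays. The lowest, 9.69, was in treated 1, the array behind the values with slide as a block. Treated 1 also had the lowest collecting duct sum (6.72) and the highest thick limb and distal tubule sum (8.93). The part of these in the values with slide as a block was not tested. Proximal tubule differences ran from -0.325 (Lrp2) to 0.25 (Aqp1). Plasma cells have a large ER, and 2 of 5 plasma cell markers were measured. The log2 of their summed linear signals was -0.50 to 0.02 in the vehicle and -0.30 to -0.07 in the treated arrays. Of the 2, 1 is Derl3, also a gene of ER-associated degradation. These 2 markers differed in opposite directions, Derl3 by 0.52 (SE 0.27) with overlapping groups and Pou2af1 by -0.40 (SE 0.08) with every treated array below every vehicle array, and their part in the ER results was not tested. No probe was matched to Jchain through its accession, and the probes of Mzb1 and Tnfrsf17 did not pass the filter on dim values. In whole cortex, fewer cells of a type and less RNA per cell cannot be told apart.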

How the data were processed

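Intensity values per spot were deposited by the authors as scanner files made with Agilent Feature Extraction 10.7.1.1, per the file headers (10.7 in the submitters' processing notes). Any background or spatial correction inside that processed signal was kept as given. The authors' deposited value table holds linear intensities that were close to the same signal divided by each array's 75th percentile, and every column belonged to a known sample. Its column medians were 0.105 to 0.110, and its scaling is not stated in the sources used here.

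For each array, log2 processed signals were set relative to the 75th percentile of its 61537 non-control probes. Outlier-flagged probes (11) were left out, and a probe was tested when well above background on all 3 arrays of a group (40643 probes). The deposited flags are 0 or 1 per spot. Accessions were matched without versions to RefSeq symbols of GRCr8, whereas the array design names an older build, so GRCr8 coordinates are given for the promoter windows alone and not for genes or probes. Of the probes, 28206 had 1 symbol, 33331 none and 0 several. A gene was represented by its brightest tested probe, chosen by mean signal.

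Treated and vehicle arrays were tested in limma (version 3.58.1, under R 4.3.3) by a two-sided moderated test, adjusted by Benjamini-Hochberg over all tested probes, with a threshold of 0.05. Intervals are 95% intervals of the moderated fit. Promoter windows were the 250 bases before each RefSeq start. The members and gene lists were chosen with earlier results of these data known, and so give no independent support. By the rule for named genes, values per array are given for 17 listed members and for other members with an unadjusted p under 0.05 and groups that did not overlap. Hspa1b and Dnajb1 are among the 17 and have no values, since no probe was matched to them. From each other list up to 4 such genes with the largest difference are named (2 where there was none), as are Ddit3, Atf3, Trib3, Eif2ak3, Hsf1 and Hspa9. Values per array of Syvn1, Sdf2l1 and Bag3, and the members of some counts of 5 or fewer, were added after their values were seen.

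Alternatives covered background correction, normalization, filters, slide, replicate number, variance model, source of the values, choice of probe and each array left out. The normexp alternative used the median spot signal, since the files hold no mean. Precision is limited by having 3 arrays in each group.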

Additional observations from a re-analysis of the deposited data

How the results depend on the processing

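The replicate numbers of the labels are not stated to pair animals. The correlations of deviations from the group means were -0.21, 0.01 and -0.16 for numbers 1, 2 and 3. For unlike numbers they were -0.10 to 0.22, and such values cannot show whether animals were paired. With the replicate block 0 probes were called, 0 genes of the 32 were lower and 5 other pathway genes were lower at an unadjusted p under 0.05. In that fit 4311 of all 40643 tested probes were lower, against 4977 without the block. Against 3 probes called, there were 136 with normexp, 156 with trend and robust variance, 17 with median centring, 1 without a filter, 0 with only probes well above background on all 6 arrays and 1 with slide as a fixed block. Leaving out an array gave 0 to 4307. The cause was not tested.

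Of the 32 genes, the count higher at an unadjusted p under 0.05 was 0 with slide as a fixed block and 2 to 5 without an array. The count lower was 0 with normexp, quantile normalization, median centring, no filter, slide as a fixed or random block and the mean over the probes, and 0 to 2 without an array. Counts of other pathway genes without an array were 11 to 24 higher and 3 to 12 lower, and 5 were lower with median centring. Over all 40643 tested probes, the counts without an array were 2191 to 5550 higher and 2763 to 7435 lower. With the settings used above 4977 probes were lower. That count was 4471 with normexp, 4698 with quantile normalization, 3955 with median centring and 3355 with slide as a random block. With no filter it was 4913 of 61526. The fit with slide as a fixed block sets treated 1 alone against the vehicle arrays. Genes whose groups did not overlap numbered 3 on the higher side and 1 on the lower with the mean over the probes. On the lower side there was 1 with normexp and with median centring. Without an array there were 6 to 10 higher and 2 to 4 lower. Over all 40643 tested probes, 4671 did not overlap on the higher side and 6889 on the lower. These counts were 4829 and 6026 with normexp, and 5383 and 5442 with median centring. Without an array they were 5608 to 9811 and 8204 to 11378. The median of the ATF4 targets was -0.267 to -0.0721 without an array, and that of the mitochondrial pair was 0.0674 with normexp, -0.0454 with quantile normalization and 0.0377 with median centring. Of the 28 genes whose interval included 0, 19 changed sign in at least 1 of 17 alternatives. Herpud1, Dnajb9, Hsp90ab1 and Chac1 kept their sign in all 17. Only 2 of the 32, Dnajb9 and Chac1, passed adjustment in any alternative, both without treated 1, where the treated arrays all lay on slide 2.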
